A study of Mus musculus with 8 samples.

Results

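Myelin and mature oligodendrocyte genes were followed in hippocampal CA1 RNA of 8 mice. The set holds 29 genes, chosen by name as components of myelin or as transcripts typical of the cells that make it, out of 37315 gene identifiers counted in each library. All 29 were found. Of these, 27 passed the filter on low counts and were tested among 14788 genes, while Nkx6-2 (1 to 8 reads per library) and Ppp1r14a (4 to 15 reads) did not.

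Every mouse expressed Cas9 and received a stereotaxic injection of an adeno-associated virus (AAV) that delivers a guide RNA. The guide was directed against SIK3 in 4 mice, whose libraries are labelled KO, and was a control guide in the other 4. Each group had 2 males and 2 females, and each mouse gave 1 library of 13561662 to 18619928 counted reads. All groups therefore shared Cas9 and an AAV. The sources used here do not give the age, the strain, the promoters behind Cas9 and the guide, the cells reached by the virus or the time after injection. Libraries are numbered within a group in listing order, so equal numbers do not pair mice.

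Oligodendrocytes wrap axons in layers of membrane that are pressed together into compact myelin, which insulates the axon and speeds conduction. Compaction needs proteins that hold the membrane faces together, a membrane rich in galactolipids and cholesterol, and a set of surface proteins that face the axon or the outside of the sheath. The transcription factor encoded by Myrf switches on many of these genes as the cell matures. In the hippocampus, myelin lies mainly in the fibre layers beside the pyramidal cells and is sparse in the cell layer itself.

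The targeted transcript was examined first. In the order of their numbers, Sik3 measured 165, 148, 139 and 137 CPM (reads scaled to a common library total) in the controls, while the KO mice had 75.3, 88.3, 82.9 and 98.4 CPM. The groups did not overlap, and Sik3 fell in the KO mice (log2 fold change -0.77, SE 0.088; adjusted p = 0.0202 in edgeR's quasi-likelihood test with Benjamini-Hochberg adjustment). DESeq2 and limma voom also called Sik3 (adjusted p = 4.93e-13 and 0.0186). Its log2 fold change ran from -0.85 to -0.70 when leaving out 1 library and from -0.90 to -0.73 in the other alternatives. The edgeR call was lost without control 2, control 3, KO 2 or KO 3 (edgeR, adjusted p = 0.108, 0.0866, 0.0865 and 0.242). It was also lost without both KO females (0.0990), where only the males compare the guides, and against a 1.2-fold change (0.182).

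The labelled tissue and the cell type were checked against fixed marker lists. Transcripts of mature oligodendrocytes were abundant in every library, with Mbp at 647 to 1346 CPM and Mobp at 637 to 1120 CPM. CA1 pyramidal markers summed to 443 to 504 CPM in controls and 469 to 498 CPM in KO mice. Dentate granule markers were also present, at 887 to 999 CPM in controls and 805 to 976 CPM in KO mice. The Schwann cell list, which would mark myelin from peripheral nerve, summed to 10.4 to 14.2 CPM in controls and 13.1 to 14.5 CPM in KO mice.

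Levels were compared between genes per kilobase of merged exons, as means over the 8 libraries. Transcripts of structural proteins of compact myelin stood at the top, with Mobp at 124 CPM per kb, Mbp at 108 CPM per kb and Mal at 77.0 CPM per kb. The carbonic anhydrase gene Car2 followed at 51.0 CPM per kb. Cnp, Qdpr and Tspan2 were close together at 34.0, 33.6 and 33.1 CPM per kb. The surface protein genes Mog, Ermn, Gjc3 and Mag had 19.7, 17.0, 16.3 and 14.6 CPM per kb. At the lower end were Trf, Tmem125 and Carns1 at 1.34, 1.03 and 1.02 CPM per kb, Ppp1r14a at 0.361 and Nkx6-2 at 0.100. The level of Trf, the iron carrier transferrin, is uncertain. In GENCODE, 63.5% of its exon bases are shared on the same strand with the model Gm20425, which had 0 counts in every library. Carns1, Evi2a and Mobp also share exon sequence on the same strand with other genes, over 29.7%, 19.2% and 1.15% of their exon bases. Exons of other genes cross on the opposite strand in 9 members, at up to 40.3% of exon bases for Carns1, and the sources used here do not state the strand setting of the counting.

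The sequences just upstream of gene starts are shown for 5 members. Whether they bear on the shared variation across mice, described below, was not tested. Mobp, Cnp and Mag were taken for their matches to short motifs, and Mal and Cldn11 as the members with the smallest unadjusted p for the guide. Each window is the 250 bases before a RefSeq start on GRCm38.p6, 5′ to 3′ on the gene's own strand. They lie at chr9:120149492-120149741 (plus, Mobp), chr11:100574689-100574938 (plus, Cnp), chr7:30914923-30915172 (minus, Mag), chr2:127656696-127656945 (minus, Mal) and chr3:31149670-31149919 (plus, Cldn11). Capitals mark the letters ACAAAG or ACAATG, as bound by SOX factors, CTGGNAC, and CAGCTG, an E-box, each searched on both strands. CTGGNAC takes any base at N, so its matches need not be sites reported for the factor encoded by Myrf.
Mobp: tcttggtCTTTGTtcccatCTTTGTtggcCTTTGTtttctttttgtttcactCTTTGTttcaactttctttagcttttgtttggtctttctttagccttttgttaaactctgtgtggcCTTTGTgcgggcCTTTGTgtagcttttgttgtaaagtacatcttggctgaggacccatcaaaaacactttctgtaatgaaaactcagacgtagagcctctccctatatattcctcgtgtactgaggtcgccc
Cnp: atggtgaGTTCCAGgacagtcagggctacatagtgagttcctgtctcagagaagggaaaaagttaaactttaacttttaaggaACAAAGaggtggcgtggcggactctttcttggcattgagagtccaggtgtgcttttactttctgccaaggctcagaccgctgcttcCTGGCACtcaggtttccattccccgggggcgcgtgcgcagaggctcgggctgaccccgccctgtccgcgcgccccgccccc
Mag: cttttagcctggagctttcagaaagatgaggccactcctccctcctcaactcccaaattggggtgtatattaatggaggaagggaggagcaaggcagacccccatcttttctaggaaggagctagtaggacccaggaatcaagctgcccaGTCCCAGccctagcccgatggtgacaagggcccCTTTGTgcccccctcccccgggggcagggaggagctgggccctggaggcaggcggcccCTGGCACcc
Mal: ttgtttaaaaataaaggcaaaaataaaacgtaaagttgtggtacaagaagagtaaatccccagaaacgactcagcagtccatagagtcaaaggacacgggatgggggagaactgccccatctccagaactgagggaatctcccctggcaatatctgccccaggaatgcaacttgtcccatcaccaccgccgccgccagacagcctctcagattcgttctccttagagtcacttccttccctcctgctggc
Cldn11: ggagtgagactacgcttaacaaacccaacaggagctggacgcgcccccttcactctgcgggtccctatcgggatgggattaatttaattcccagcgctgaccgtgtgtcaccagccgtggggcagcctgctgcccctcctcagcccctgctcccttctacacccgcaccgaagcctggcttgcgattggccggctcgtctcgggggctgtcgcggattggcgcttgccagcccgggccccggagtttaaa

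The Mobp window held 6 copies of ACAAAG, all on its opposite strand, so they read CTTTGT above. ACAAAG occurred in 16.5% of 32817 annotated windows of this length and in windows of 5 of the 20 members that the promoter table holds. CTGGNAC was in windows of 8 of the 20 members, against 16.1% of all windows, and the Cnp and Mag windows each held 2 copies beside 1 copy of ACAAAG. Of the other motifs, ACAATG was found for 2 members and CAGCTG for 3, against 10.7% and 13% of all windows. Members with several starts had several windows, so the shares of genes and of windows are not on one footing. Counted by window, the 20 members had 25 windows. In the order given above, the motifs were in 6, 9, 2 and 4 of these 25 windows. The windows of Mal and Cldn11 held none of these letters. Mag had further windows beside the printed one. That at chr7:30914864-30915113 overlaps the printed window and held the same matches. That at chr7:30914322-30914571 held none of these letters. A match is only a description of the letters in the window.

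The main pattern in these genes was a difference between mice that crossed both guides. Per mouse, the 29 transcripts together took 4116, 3343, 2930 and 2464 CPM among the controls, in the order of their numbers, and 3142, 2341, 2548 and 3514 CPM among the KO mice. Each group thus had libraries rich and poor in myelin transcripts, and the groups overlapped. In bulk tissue, fewer oligodendrocytes and less RNA per oligodendrocyte cannot be told apart.

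Nearly the whole set moved together from mouse to mouse. Relative to each gene's own mean log2 CPM, 26 of 27 tested members were above it in control 1 and 26 in control 2. In KO 1 and KO 4, 23 and 25 were above it. In KO 2, 0 were above it, in KO 3 there were 2 and in control 4 there was 1. Over all tested genes, 46.1% to 53.3% were above their own mean in any library. Control 1 was the highest of the 8 libraries for 19 members, and control 4 and KO 2 were the lowest for 13 and 12 members. Among all tested genes, control 1 was highest for 13.6%, and control 4 and KO 2 were lowest for 12.4% and 11.01%.

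**Figure D1:**
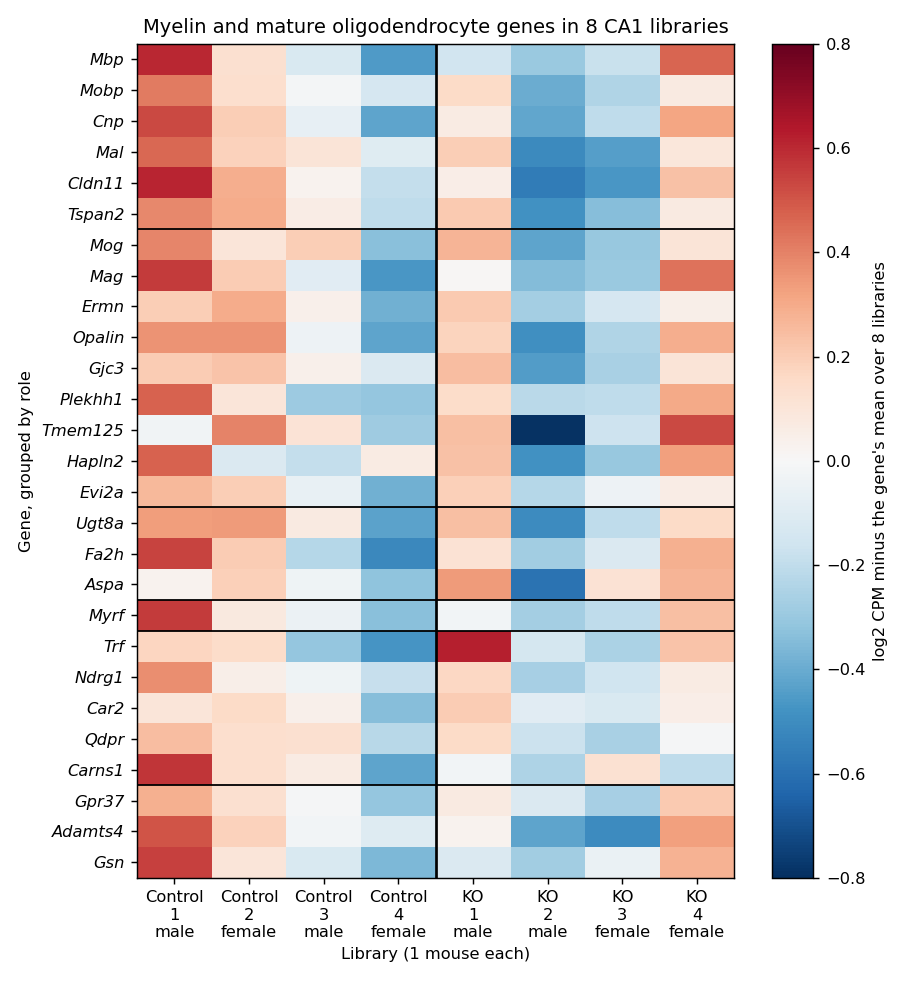
Log2 CPM of the 27 tested genes (rows, grouped by role) in the 8 libraries (columns, 1 mouse each), with each gene's mean over the libraries set to 0; red is above and blue below that mean. Control 1, control 2 and KO 4 are mostly red and control 4, KO 2 and KO 3 mostly blue, so high and low libraries occur under both guides.

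The spread within a group was larger for these genes than for most others. The within-group SD of log2 CPM had a median of 0.32 over the members (0.19 to 0.45) and of 0.15 over all tested genes. It was above 0.2 for 25 of 27 members, against 34.1% of all tested genes. At a mean of at least 10 CPM the gap was still there, with a median SD of 0.32 over 23 members and of 0.11 over 9202 genes. From the lowest to the highest library, members differed by 1.42-fold (Qdpr) to 2.65-fold (Tmem125, a small membrane protein gene with 18 to 60 reads per library), with a median of 1.86-fold. Tmem125, which also had the largest within-group SD, was at 2.27, 3.09, 2.50 and 1.88 CPM under the control guide and at 2.76, 1.28, 2.05 and 3.40 CPM under the SIK3 guide. Car2 had the smallest within-group SD, at 131, 136, 126 and 97.2 CPM in controls and 141, 115, 113 and 128 CPM in KO mice.

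Each member was also set against the mean of the other 26 over the 8 libraries, as a description with no test. Pearson's r had a median of 0.89 and was above 0.8 for 21 members, with Cnp at 0.98 and Carns1 at 0.65. Outside the set, among 9179 genes with a mean of at least 10 CPM, 0.926% had an r above 0.8 with the members' mean. Among the 10 genes with the largest r were Prr18, Gatm, Bcas1, Wdr20, Rassf3, Myo1d, Sept4, Tmem88b and Npc1, with r from 0.94 to 0.99. Without KO 2 and control 4, the libraries farthest from the median of the members' mean, their r was 0.87 to 0.99. Prr18, Bcas1, Sept4 and Tmem88b are on the list of further oligodendrocyte genes.

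Other gene lists differed in how far they ranged across the same mice. The mean centred log2 CPM of the members was 0.38, 0.18, -0.029 and -0.30 in controls 1 to 4 and 0.15, -0.36, -0.21 and 0.20 in KO 1 to 4. The 23 tested genes of the further oligodendrocyte list had means of -0.28 to 0.30 among controls and -0.27 to 0.25 among KO mice. Lineage and precursor genes did not follow the members everywhere, with -0.19 in control 3 and -0.19 in KO 1, where the members were at -0.029 and 0.15. Axonal partners of myelin, neuronal genes for nodes and the contact with the sheath, stayed between -0.069 and 0.066 in all 8 libraries, and astrocyte markers between -0.097 and 0.10. From the lowest to the highest library the members spanned 0.74, while markers of microglia, meningeal fibroblasts and choroid plexus (2 tested genes) spanned 0.59, 0.63 and 0.68 and ependymal markers (3 tested genes) 1.58.

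**Figure D2:**
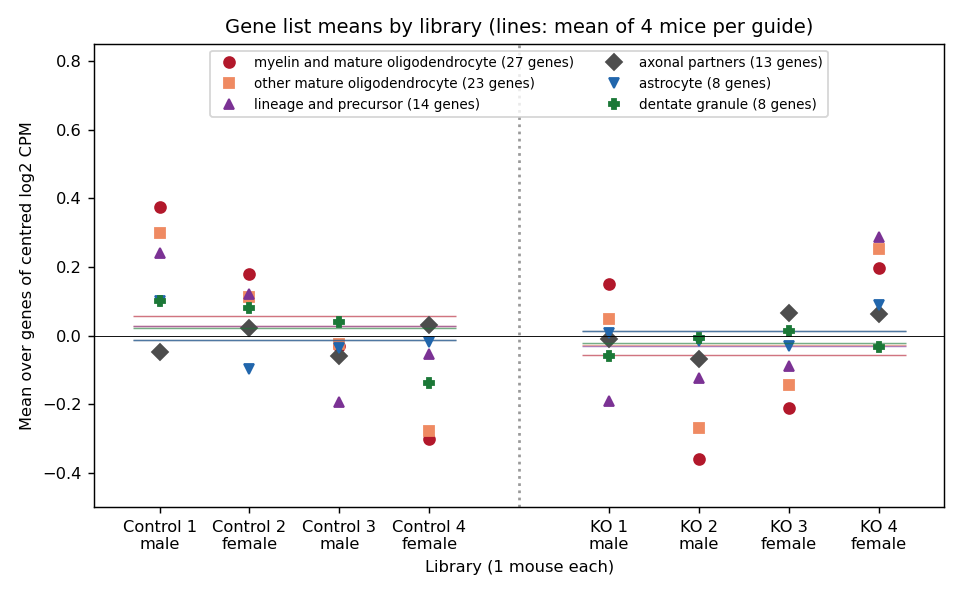
Mean over genes of centred log2 CPM for 6 gene lists in each library, with horizontal lines at the mean of the 4 mice of each guide. The members run from -0.36 in KO 2 to 0.38 in control 1, while axonal partners stay between -0.069 and 0.066.

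Some other measures moved with part of this pattern. Dentate granule markers were at 0.10, 0.082, 0.041 and -0.14 in controls 1 to 4, where the members also went from high to low, but at -0.058, -0.0077, 0.013 and -0.033 in KO 1 to 4. With dentate markers as a covariate, the members' median log2 fold change for the guide was 0.0099. Ependymal markers, of which 3 were tested, were at 0.54 in control 1 and -1.04 in control 4. Meningeal fibroblast markers were at 0.31 in KO 1 and 0.35 in KO 4 and at -0.28 in control 4. A library's GC slope, the change in log2 CPM per 10 percentage points of GC content, was 0.14 in control 1 and 0.16 in KO 4. It was -0.16 in KO 1 and -0.049 in control 2, where the members were also above their mean. In KO 2 and KO 3 the slope was 0.089 and 0.029, with the members below their mean. In controls 3 and 4 it was -0.091 and -0.12, with the members also below. With that slope as a covariate, the members' median for the guide was -0.17. The part of ependymal and meningeal markers in the members' spread was not tested.

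The next comparison asked whether myelin transcripts differed between the guides. None of the 27 tested members passed (0 called by edgeR, 0 at an unadjusted p under 0.05), against 0.0135% of all tested genes called and 2.81% at that unadjusted p. DESeq2 and limma voom also called 0, with 0 members at an unadjusted p under 0.05 in each. With no filter on low counts edgeR called 2 of 29 members, Mal and Cldn11 (adjusted p = 0.00247 and 0.0051), against 84 of 24147 genes. Their log2 fold changes hardly moved from the filtered fit. Only their standard errors fell, from 0.15 to 0.066 for Mal and from 0.19 to 0.081 for Cldn11, and the cause was not tested. Log2 fold changes, KO minus control, were negative for 23 of 27 members, and positive for 4, against 48.5% and 51.5% of all tested genes, with a median of -0.11 against 0.0036. Since the members varied together, these signs are not 27 separate observations. The members' mean centred log2 CPM was 0.056 in controls and -0.056 in KO mice, a gap smaller than its within-group SD of 0.28. For 0 members did every KO library lie below every control (0.811% of all tested genes) or above every control (0.933%).

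**Figure D3:**
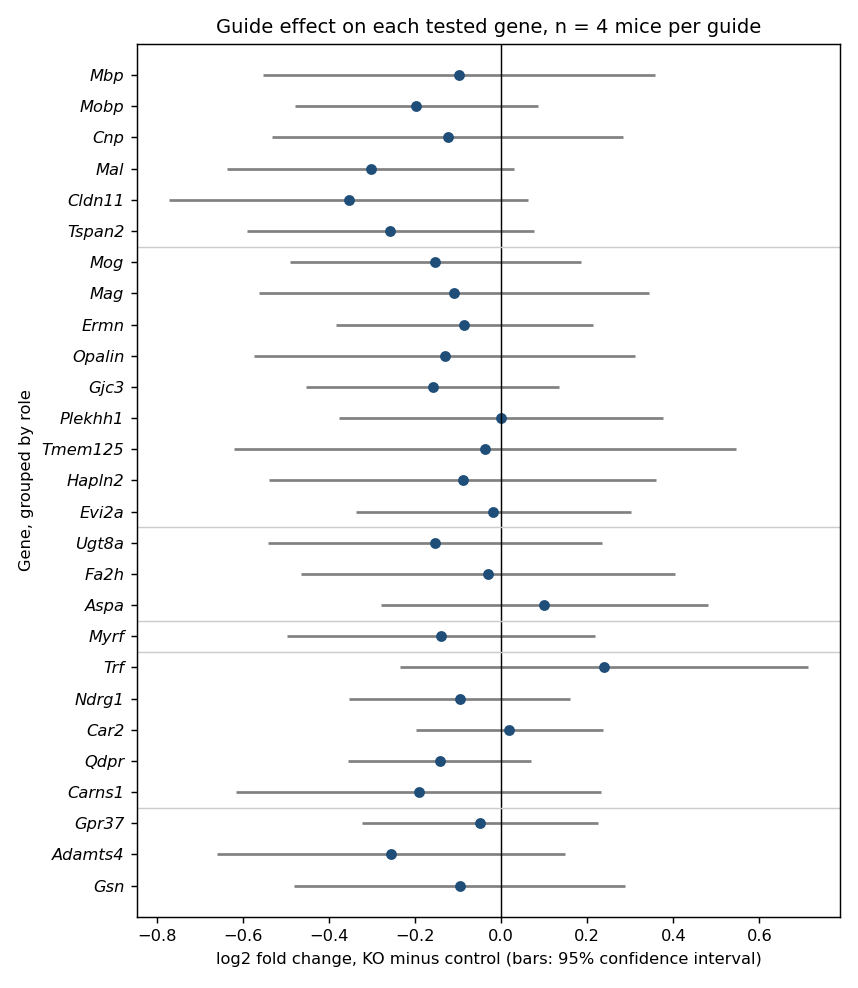
Log2 fold change (KO minus control, n = 4 mice per guide) of each tested gene, grouped by role, with its 95% confidence interval from the edgeR fit. All 27 intervals include 0; the points run from -0.36 for Cldn11 to 0.24 for Trf.

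The genes of compact myelin and its membrane layers had the lowest median of the role groups, at -0.23, with 6 of 6 values negative. Mal, a proteolipid of myelin membrane rafts, was at 288, 238, 225 and 196 CPM in controls and 240, 147, 154 and 223 CPM in KO mice. Its groups overlapped through KO 1 and KO 4, and its log2 fold change was -0.30 ± 0.15 (SE; edgeR, adjusted p = 0.9999; 95% confidence interval -0.64 to 0.03). Cldn11, the claudin of the tight junctions between myelin layers, was at 79.5, 63.6, 53.0 and 45.5 CPM in controls and 53.9, 35.2, 37.7 and 61.3 CPM in KO mice, a log2 fold change of -0.36 ± 0.19 (interval -0.77 to 0.06). Again KO 2 and KO 3 were the low libraries, and KO 4 was above controls 3 and 4.

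Tspan2, a tetraspanin of oligodendrocytes, was at 201, 190, 161 and 134 CPM in controls and 178, 110, 122 and 162 CPM in KO mice, a log2 fold change of -0.26 ± 0.15. Mobp, a basic protein of compact myelin, was at 1120, 922, 831 and 764 CPM in controls and 932, 637, 710 and 882 CPM in KO mice, with -0.20 ± 0.13. Both had KO 2 and KO 3 below every control, and KO 1 and KO 4 within the control range. Mbp, whose protein holds the cytoplasmic faces of the membrane together, was at 1346, 968, 815 and 647 CPM in controls and 797, 722, 782 and 1222 CPM in KO mice. All 4 KO values lay within the control range, and the log2 fold change was -0.098 ± 0.21 (interval -0.55 to 0.36). Cnp, an enzyme of the non-compacted membrane, had a log2 fold change of -0.13 ± 0.19.

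The surface and junction proteins had 8 of 9 negative values and a median of -0.090. Gjc3, a connexin of myelin, was at 80.8, 82.3, 72.1 and 64.7 CPM in controls and 83.1, 51.5, 58.6 and 75.2 CPM in KO mice, and its log2 fold change was -0.16 ± 0.14. KO 2 and KO 3 were again below every control, and KO 1 was above every control. Mog, on the outermost layer of the sheath, had -0.15 ± 0.16 and Mag, which faces the axon, -0.11 ± 0.21. The remaining 6 (Opalin, Hapln2, Ermn, Tmem125, Evi2a and Plekhh1) lay between -0.13 and 0.00029.

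Lipid and acetate genes had a median of -0.030. Ugt8a, which makes the galactolipids of myelin, was at 77.4, 77.6, 64.5 and 45.6 CPM in controls and 72.7, 43.3, 53.3 and 68.2 CPM in KO mice, and its log2 fold change was -0.15 ± 0.18. Its KO values lay within the control range except for KO 2, which was lowest. Fa2h, which hydroxylates the fatty acids of those lipids, had -0.030 ± 0.20, and Aspa, which frees acetate from N-acetylaspartate, 0.10 ± 0.17. Myrf, the maturation factor, was at 57.3, 40.9, 37.6 and 30.8 CPM in controls and 38.2, 32.1, 33.7 and 45.8 CPM in KO mice, with -0.14 ± 0.16 and all KO values inside the control range. Nkx6-2, a homeobox factor of the lineage, had 5, 3, 1 and 2 reads in controls and 1, 1, 4 and 8 in KO mice, too few to test.

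Among genes of iron, pH and small-molecule metabolism, 3 of 5 values were negative and the median was -0.097. Qdpr, a reductase that regenerates tetrahydrobiopterin, was at 70.6, 65.4, 65.2 and 51.0 CPM in controls and 66.2, 52.8, 49.8 and 59.2 CPM in KO mice, and its log2 fold change was -0.14 ± 0.098. Car2 had 0.019 ± 0.099 (interval -0.20 to 0.24), the narrowest interval but that of Qdpr. Ndrg1 had -0.097 ± 0.12, the carnosine synthase gene Carns1 -0.19 ± 0.19 and Trf, with 47 to 100 reads per library, 0.24 ± 0.22.

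In the group of receptor, protease and actin regulators, all 3 tested values were negative. Adamts4, a secreted protease that cuts proteoglycans, was at 23.4, 18.8, 16.3 and 15.4 CPM in controls and 16.9, 12.3, 11.7 and 20.8 CPM in KO mice, and its log2 fold change was -0.26 ± 0.19. KO 2 and KO 3 were below every control. Gpr37, a receptor that restrains oligodendrocyte maturation, was at 47.8, 42.8, 39.0 and 31.5 CPM in controls and 41.1, 36.1, 32.6 and 45.3 CPM in KO mice, with -0.050 ± 0.13. Gsn, which encodes the actin-severing protein gelsolin, had -0.097 ± 0.18.

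The members' median for the guide depended on single mice. It was 0.0028 without control 1 and 0.0047 without KO 2, and with those libraries left out 13 and 11 of the 27 values were negative. It was -0.25 without control 4 and -0.26 without KO 4, with 26 and 25 negative. Without both KO females it was -0.29, but there the guide effect rests on the males alone, as in the male result below. Under each of these settings 0 members were called by edgeR.

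Related lists also held 0 called genes, and their signs differed; the lists were not tested against each other. Of the 23 tested genes of the further oligodendrocyte list, 17 were negative with a median of -0.060 and 0 passed (edgeR). The members of that list with the smallest p were the septin-binding anillin gene Anln, at -0.17 ± 0.080, and the lysophosphatidic acid receptor gene Lpar1, at -0.24 ± 0.15. Of 14 tested lineage and precursor genes, 10 were negative with a median of -0.099 and 0 passed, with the repressor gene Zfp488 at -0.12 ± 0.058 and the proteoglycan gene Vcan at -0.15 ± 0.091. Among axonal partners, 4 of 13 were negative with a median of 0.023 and 0 passed, with the juxtaparanodal potassium channel gene Kcna1 at -0.13 ± 0.056 and the ankyrin gene Ank3 at 0.071 ± 0.049.

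The last question was whether the guide did the same in males and females. In males, 26 of 27 members had negative log2 fold changes, and 1 a positive one, against 51.4% and 48.6% of all tested genes, with a median of -0.29. In females, 18 of 27 were positive and 9 negative, against 51.2% and 48.8%, with a median of 0.065. Within either sex 0 members passed (edgeR; 1 in males and 0 in females at an unadjusted p under 0.05), against 0% of all tested genes called within males and 0.0406% within females, and 1.83% and 7.11% at that unadjusted p. With no filter on low counts edgeR called 4 members in males (Mbp, Cldn11, Mal and Cnp) and 1 in females (Mbp). The share of all genes called within each sex at that setting is not given here, so these calls have no background to be read against. The single male value was Cldn11 at -0.57 ± 0.26. In DESeq2 there were 0 calls in either sex, with 1 and 0 members at that unadjusted p, and in limma voom 0 calls with 0 members in either sex.

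The difference between the sexes was tested as an interaction, females minus males. It was positive for 26 of 27 members and negative for 1, against 51.9% and 48.1% of all tested genes, with a median of 0.31, and 0 members passed (edgeR, adjusted p from 0.765 to 0.971), against 0% of all tested genes. At an unadjusted p under 0.05 there were 2 members, Mbp at 0.82 ± 0.34 and Gsn at 0.68 ± 0.30, against 5.42% of all tested genes, and DESeq2 and limma voom had 1 member each and 0 calls. With no filter on low counts edgeR called 3 members (Mbp, Cnp and Mag), but the share of all genes called at that setting is not given here. Mbp was at 797 and 722 CPM in the KO males against 1346 and 815 CPM in the control males, and at 782 and 1222 CPM in the KO females against 968 and 647 CPM in the control females. With 2 mice per sex and guide, each median rested on a few libraries: that of the interaction was 0.0058 without KO 2, 0.042 without KO 4, 0.077 without control 1 and 0.10 without control 4, and 0.68 without KO 1. In males the median was -0.021 without KO 2, -0.095 without control 1, -0.47 without control 3 and -0.59 without KO 1. In females it was -0.18 without control 4, -0.20 without KO 4, 0.27 without KO 3 and 0.37 without control 2. Between females and males, with the guide as a covariate, 0 members passed in edgeR, DESeq2 or limma voom (0 at an unadjusted p under 0.05 in each), against 0.0609% of all tested genes called and 6.05% at that unadjusted p in edgeR. In that comparison 24 of 27 log2 fold changes were negative (females below males) and 3 positive, against 52.1% and 47.9%, with a median of -0.077 that was 0.019 without control 1 and 0.038 without control 4.

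**Figure D4:**
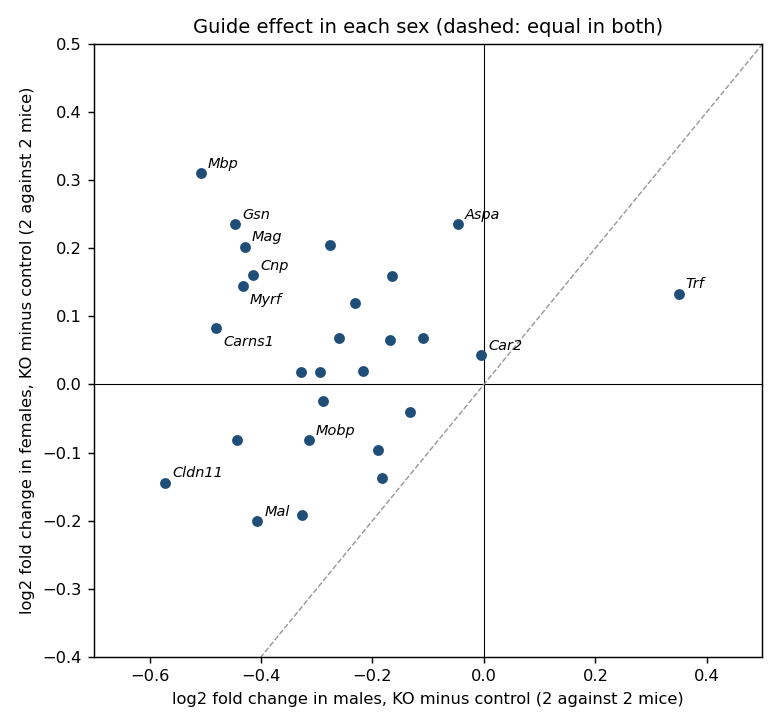
Log2 fold change for the guide (KO minus control) in females against that in males for each tested gene, 2 against 2 mice in each sex; the dashed line marks equal values. Points lie above the line for 26 of 27 genes, but 0 genes passed the test of the difference.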

How the data were processed

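The authors deposited raw read counts per Ensembl gene, 1 file per mouse. Per the labels' protocols, libraries were made from total RNA with a stranded mRNA kit. The submitters' processing notes list Trimmomatic 0.33, TopHat2 2.1.1, HTSeq 2.0.1 and mm10 with no roles; the sources used here state neither strand setting nor annotation. Another deposited table, with 8 columns repeating these counts, was left aside. Symbols, exon lengths, GC content and positions came from GENCODE M21 (GRCm38), and upstream sequences from RefSeq on GRCm38.p6.

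Counts were tested in edgeR 4.0.16 (R 4.3.3): TMM scaling, filterByExpr by group (minimum count 10, minimum total 15), quasi-likelihood F test with sex as covariate, and Benjamini-Hochberg adjustment over all 14788 tested genes at 0.05. Contrasts within each sex and the interaction used a fit of 4 sex-by-guide groups. CPM used TMM library sizes, log2 CPM a prior count of 2. The standard error is the log2 fold change divided by the square root of F. DESeq2 1.42.0, limma 3.58.1 voom, other scalings and filters, covariates and leaving out each library were alternatives. The procedure was tested on simulated data in which genes varied independently, unlike the members here. Its outcome is not given here.

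Values in every library are given for Sik3, Mbp, the member with the highest mean CPM of each role, the 6 members with the smallest unadjusted p for the guide and those with the largest and smallest within-group SD. Other members are given by values or ranges. Members and lists were chosen with earlier results of these data known, and the 5 printed sequences after the motif search. Depth was 13561662 to 18619928 reads per library, which limits precision mainly for members with few reads. Some genes of these lists are not reported here.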

Additional observations from a re-analysis of the deposited data

Results flagged for a closer look

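Mbp in KO 4, at 1222 CPM, stood apart from the other KO libraries, which were at 722 to 797 CPM. Its gap to the nearest of them was 0.85 of the group's range, and the 95% critical value of Dixon's test was passed. The same test was run on 78 groups of 4 values (29 genes and 10 list means under each guide), and about 5% of such groups pass by chance. KO 4 also had the highest positive slope of log2 CPM on GC content, at 0.16 (KO 1 had -0.16), and high microglia markers (mean centred log2 CPM 0.38, against -0.21 to 0.11 in the other libraries); the part of either in this value was not tested.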

How the results depend on the processing

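No paired analysis was possible because the labels give no replicate numbers shared between the groups. With no filter on low counts, edgeR called 84 of 24147 genes for the guide, against 2 of 14788 with the filter. Among the members, edgeR without the filter called 2 for the guide (Mal, Cldn11) and 3 for the interaction (Mbp, Cnp, Mag). It called 1 within females (Mbp) and 4 within males (Mbp, Cldn11, Mal, Cnp). Unfiltered shares of all genes are not given here for the interaction or within the sexes. These member calls are compared next with the filtered fit. Their log2 fold changes hardly moved, but the standard error of Mal went from 0.15 to 0.066 and that of the Mbp interaction from 0.34 to 0.11; the cause was not tested. Other alternatives gave 0 calls among the members. All genes called for the guide numbered 0 to 2 when leaving out 1 library, 0 against a 1.2-fold change or without both KO females, and 1 with dentate markers as covariate. Leaving out 1 library, medians ran from -0.26 to 0.0047 (guide), 0.0058 to 0.68 (interaction), -0.20 to 0.37 (females), -0.59 to -0.021 (males) and -0.21 to 0.038 (females against males). Scaling moved the members' median spread only between 0.32 and 0.33. Of 27 members, 11 kept the sign of the guide effect in all alternatives run (Mog, Mobp, Mal, Cldn11, Ugt8a, Gjc3, Trf, Tspan2, Qdpr, Carns1 and Adamts4). The other 16 changed sign when 1 library was left out, with ranges of -0.32 to 0.13 (Mbp), -0.34 to 0.087 (Mag), -0.30 to 0.053 (Cnp), -0.22 to 0.054 (Ermn), -0.30 to 0.0081 (Opalin), -0.21 to 0.18 (Fa2h), -0.052 to 0.27 (Aspa), -0.18 to 0.025 (Gpr37), -0.30 to 0.041 (Myrf), -0.17 to 0.0028 (Ndrg1), -0.077 to 0.12 (Car2), -0.15 to 0.19 (Plekhh1), -0.26 to 0.15 (Tmem125), -0.27 to 0.078 (Hapln2), -0.25 to 0.11 (Gsn) and -0.14 to 0.090 (Evi2a). With dentate markers as covariate the sign turned for Mbp (0.084), Mag (0.061), Cnp (0.028), Ermn (0.023), Opalin (0.0099), Fa2h (0.15), Gpr37 (0.031), Tmem125 (0.039), Gsn (0.045) and Evi2a (0.088). It also turned for Fa2h in limma voom (0.0071), for Aspa (-0.047), Car2 (-0.0058) and Plekhh1 (-0.17) without both KO females, and for Plekhh1 with RLE scaling (-0.0038), DESeq2 (-0.0044), no sex covariate (-0.0030) and the GC slope (-0.067). Depth limited Nkx6-2 and Ppp1r14a, which had too few reads to test.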

Other observations

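Among the myelin genes, Mbp did not keep a fixed ratio to other transcripts of compact myelin. The ratio of Mbp to Mobp CPM was 1.202, 1.05, 0.981 and 0.847 in controls 1 to 4 and 0.855, 1.13, 1.10 and 1.38 in KO 1 to 4. The ratio of Mbp to Mal was 4.67, 4.07, 3.62 and 3.31 in controls and 3.32, 4.92, 5.07 and 5.47 in KO mice, so 3 KO libraries were above every control and KO 1 was not. Mal was the member with the smallest unadjusted p for the guide. Ratios of other member pairs are not given here, and no ratio was tested between the guides. KO 1 and KO 4 were both rich in myelin transcripts. Of 27 members, 13 were higher in KO 4 and the other 14 in KO 1, near the 50.6% of all tested genes that were higher in KO 4. Of the 13 members above the set's median GC content of 51.0%, 9 were higher in KO 4, and of the other 14, 4 were. The shares of all tested genes on each side of that GC content are not given here. The GC slopes of KO 4 and KO 1, fitted over all tested genes, were 0.16 and -0.16, so the split cannot be read as particular to the members. This split was chosen after the values were seen.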
